A study of Homo sapiens with 6 samples.

Results

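Complement components, their regulators and vitronectin, 9 genes in all, were followed in human OVCAR3 cells after knockdown of NUF2. They are C1R, C1S, C3, CFB, CFI, VTN, CD46, CD55 and CD59, taken by exact symbol from the 19973 genes listed in the count table, in which each of the 9 has 1 row. OVCAR3 is an established cell line from an epithelial ovarian cancer. The cells were transfected with a plasmid that carries a short hairpin RNA under the U6 promoter and a puromycin resistance gene. The study made stable NUF2-silenced OVCAR3 cells, but whether these were the cells sequenced, and how long after transfection RNA was taken, is not given in the sources used here. The control group (shNC, 3 libraries, labelled wild type) received a control hairpin, and the knockdown group (shNUF2, 3 libraries) received a hairpin against NUF2, which encodes a subunit of the NDC80 kinetochore complex that holds chromosomes to the spindle. The knockdown rests on 1 cell line and 1 hairpin sequence, and the labels do not say whether the 3 libraries of a group are separate cultures, so that the p-values measure only the spread between these libraries, which may be technical.

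Complement is a cascade of blood proteins that tags and lyses cells. C1R and C1S are the serine proteases that open the classical pathway, C3 is the central component on which the activation routes converge, and factor B (CFB) supplies the protease of the alternative pathway. Host cells are protected by regulators. Factor I (CFI) is the protease that inactivates the cleavage products of C3 and C4, CD46 is its cofactor on the cell membrane, CD55 speeds the decay of the enzymes that cleave C3 and C5, and CD59 blocks the last step, the assembly of the pore. Vitronectin (VTN) is a plasma and matrix protein that keeps the terminal complex from inserting into membranes and also serves as a ligand for integrins. Tumor cells, ovarian ones included, are known to carry CD46, CD55 and CD59 on their surface.

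The sequence behind the contrast and the upstream sequences of the genes that differed most are shown first. The NUF2 hairpin was designed against a 21-base target, printed here with the complementary strand, in which the capitals mark bases 2 to 8, the seed through which a small RNA can pair with other transcripts.
NUF2 target: cttcttaccattcagcaattt
Complementary strand: aAATTGCTgaatggtaagaag
The site complementary to that seed, AGCAATT, was searched in the longest annotated 3′ UTR of each gene (GENCODE 29). None of the 9 genes held it, against 14.2% of 12790 genes tested that have an annotated 3′ UTR. The median UTR of those genes was 1357 bases, whereas C3, CFB, CFI, C1R, C1S and VTN had 93 to 384 bases. The lengths compared are thus unlike. The CD59 UTR was the longest of the 9 at 7116 bases, and that of VTN was the shortest at 93 bases. The absence says only that these letters are not in those windows.

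The 250 bases before the transcription start are printed for CD59 and VTN, the genes with the largest rise and the largest fall of the 9, and for CD46, which fell while CD59 rose. They come from RefSeq (GRCh38.p14), which had entries for 7 of the 9 genes (12 starts). Capitals mark matches on either strand to the GC box (GGGCGG), the CCAAT box (CCAAT), the TATA box (TATAAA), an interferon response element core (TTTCNNTTT) or a STAT element (TTCNNNGAA). No printed matches overlap one another.
CD59, first start, chr11:33736480-33736729, minus strand: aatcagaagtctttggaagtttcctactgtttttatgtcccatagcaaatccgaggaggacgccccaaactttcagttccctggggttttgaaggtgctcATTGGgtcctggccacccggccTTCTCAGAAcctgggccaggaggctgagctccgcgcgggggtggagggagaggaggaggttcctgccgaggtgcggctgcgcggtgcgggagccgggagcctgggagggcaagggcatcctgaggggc
VTN, chr17:28370308-28370557, minus strand: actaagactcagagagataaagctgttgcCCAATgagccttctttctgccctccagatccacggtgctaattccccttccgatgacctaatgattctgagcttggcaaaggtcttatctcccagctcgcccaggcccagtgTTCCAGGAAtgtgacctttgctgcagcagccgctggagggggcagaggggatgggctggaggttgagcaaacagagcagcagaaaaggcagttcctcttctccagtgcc
CD46, first start, chr1:207751788-207752037, plus strand: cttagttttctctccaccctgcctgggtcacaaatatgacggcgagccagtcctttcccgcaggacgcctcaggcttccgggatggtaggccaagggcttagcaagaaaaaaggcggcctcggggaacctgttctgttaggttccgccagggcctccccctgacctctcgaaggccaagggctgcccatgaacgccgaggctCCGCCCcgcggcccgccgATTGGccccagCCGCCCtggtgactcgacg
The CD59 and VTN windows each held 1 CCAAT box and 1 STAT element match, although one gene rose and the other fell. Among 35116 promoters of the same length, 32% held the CCAAT letters and 6.57% the STAT letters. The printed CD46 window held 2 GC boxes and 1 CCAAT box, that of its second start held 3 GC boxes, and GC boxes were present in 42.6% of the promoters. The CFB window (chr6:31945845-31946094, plus strand) was the only one of the 12 with a TATA box or an interferon response element core, which 10.7% and 9.2% of the promoters held. The VTN start lies inside the deposited gene span, so that its window overlaps the gene model. A match is a description of letters, not a shown binding site.

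The libraries held 13057534 to 16995452 reads in genes, and 12874 genes passed the filter on low counts. The libraries of a group differed beyond sampling noise. The targeted gene, NUF2, was counted at 903, 1096 and 1092 reads in controls against 281, 290 and 384 in knockdown libraries, a log2 fold change of -1.51 ± 0.08 (SE, n = 3 per group, adjusted p = 2.18e-15). Of the cell markers, FOLR1, MSLN and the keratins were abundant. WT1, EPCAM and CDH1, 3 of the 10 listed ovarian carcinoma markers, stayed under 100 reads in every library and go against the label. PAX8 and MUC16 had more reads, but per gene length they were no higher than EPCAM. With shNC the means were 1.37 FPKM for PAX8, 1.11 for MUC16 and 1.39 for EPCAM. The identity of the line was not tested. The change between the groups was broad, with 33.9% of the genes tested higher and 33.8% lower at an adjusted p under 0.05 (edgeR quasi-likelihood test, Benjamini-Hochberg over all 12874 genes). Values below are CPM (reads of a gene relative to the library total, TMM-scaled), with SD over 3 libraries, unless stated as FPKM, which also divides by gene length. FPKM is used to compare genes with one another. The words rose and fell are used only for an adjusted p under 0.05.

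Of the 9 genes, 7 passed the filter. CD59 and C3 rose, VTN, CD46, C1S and CD55 fell, and C1R did not pass the test. CFB and CFI had too few reads to be tested. The 2 genes that rose and the 4 that fell are to be read against the 33.9% and 33.8% of all genes, and the median log2 fold change of the 7 was -0.14, against -0.01 over all genes tested. At the threshold used by the study, a log2 fold change beyond 1 with an unadjusted p under 0.05, CD59 was the 1 gene higher and VTN the 1 gene lower, where 9.41% and 4.16% of all genes passed. The groups did not overlap for 6 of the 7 genes tested, as for 70.6% of all genes tested. For a single value, permuting 3 libraries against 3 exactly gives a p of 0.10 at the smallest.

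**Figure D1:**
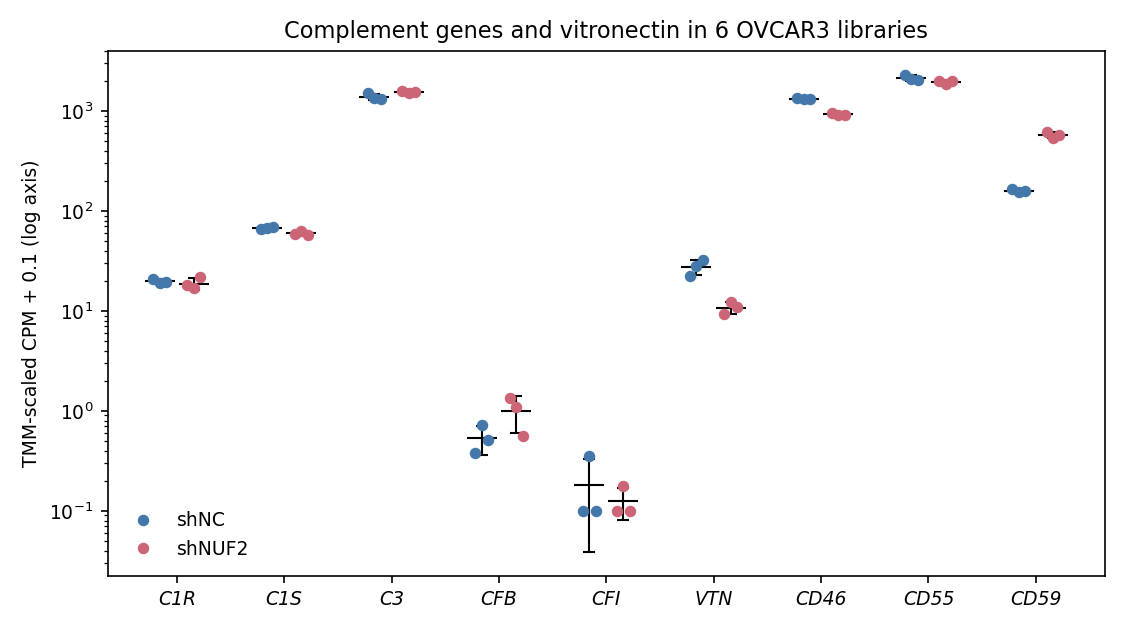
Level of the 9 genes in each of the 6 libraries, as TMM-scaled CPM + 0.1 on a log axis, with the mean and SD of each group in black (n = 3). CD59 lies higher in every shNUF2 library and VTN lower, while C1R, CFB and CFI overlap between the groups.

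CD59, the membrane inhibitor of pore assembly, showed the largest change of the 9 genes. The gene (ENSG00000085063, chr11:33703010-33736479, minus strand) was counted at 2367, 2474 and 2703 reads in the controls, and at 8370, 6939 and 8577 after knockdown. In CPM the libraries stood at 166, 155 and 157 against 621, 534 and 570. The lowest knockdown library was thus well above the highest control. The mean moved from 159 ± 6.19 to 575 ± 43.7, a log2 fold change of 1.85 ± 0.05 (SE), or 3.61-fold with a 95% interval of 3.36 to 3.88 (adjusted p = 3.84e-21). Of all genes tested, 4% changed by more in either direction. In FPKM its rank among all listed genes went from 3011 to 663.

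CD46 and CD55, the other membrane regulators of the set, lie on the long arm of chromosome 1 and both fell, by far less than CD59 rose. CD46 (ENSG00000117335, chr1:207752054-207795513, plus strand) stood at 1348, 1319 and 1314 CPM with shNC and at 945, 906 and 920 CPM with shNUF2. The groups were far apart relative to their coefficients of variation of 1.40% and 2.13%, and the log2 fold change was -0.52 ± 0.04 (SE, adjusted p = 4.66e-12), or 0.696 of the control level. CD55 (ENSG00000196352, chr1:207321532-207386804, plus strand), the most abundant of the 9 genes, stood at 2311, 2074 and 2059 CPM against 1993, 1850 and 2001 CPM. The lowest control and the highest knockdown library were close. The log2 fold change of CD55 was -0.14 ± 0.04 (SE, adjusted p = 0.00741), and without shNUF2 replicate 2 it was -0.11 and no longer passed (adjusted p = 0.0637). Without shNC replicate 1 it was smaller still, at -0.09, and passed narrowly (adjusted p = 0.0442). Of all genes tested, 79.5% changed by more than CD55.

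Per length, the 3 membrane regulators together amounted to 541 ± 27.3 FPKM with shNC and 499 ± 20.1 FPKM with shNUF2. Each knockdown library lay under each control library, although CD59 had risen, and CD55 and CD46 made up most of the sum. The share of CD59 in the sum went from 2.79% ± 0.044 to 10.9% ± 0.471, and that of CD46 from 28.2% ± 1.00 to 21.3% ± 0.530. The share of CD55 was 69.0% ± 1.04 and 67.8% ± 0.610, with overlapping libraries. The ratio of CD59 to CD46 was 0.102, 0.0968 and 0.0986 in the control libraries and 0.542, 0.486 and 0.511 in the knockdown libraries, which is 5.18 times higher on average. The ratio does not depend on library scaling. For the sum, both shares that separated and this ratio the two-sided exact permutation p was 0.10, the smallest possible here.

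**Figure D2:**
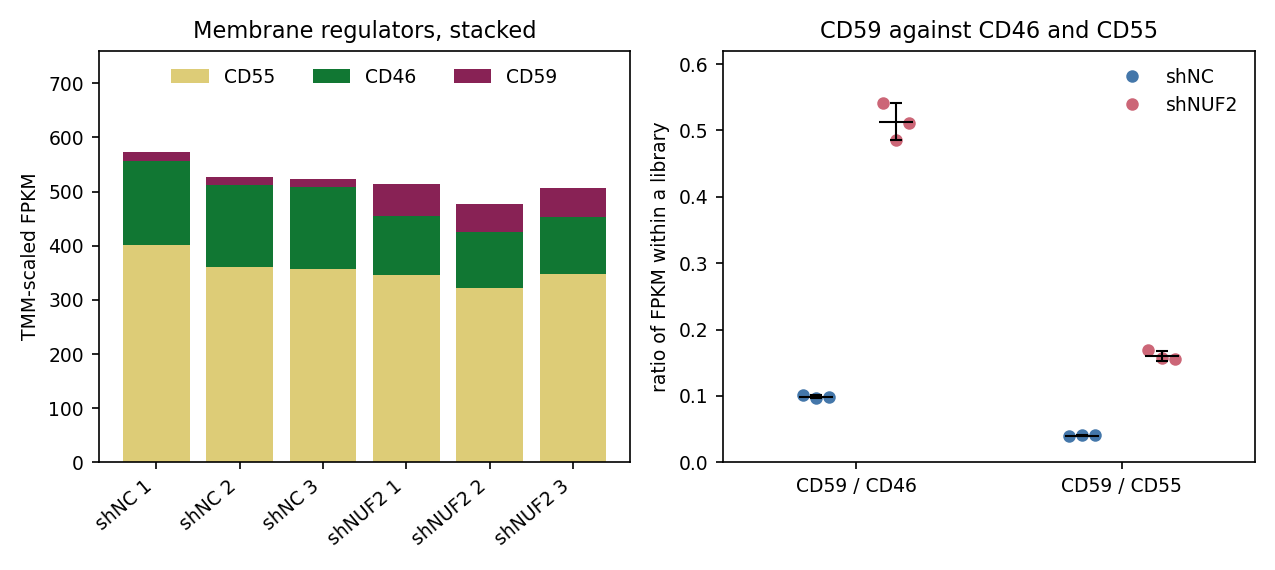
Left, TMM-scaled FPKM of CD55, CD46 and CD59 stacked for each library. Right, the ratio of CD59 to CD46 and to CD55 in each library, with mean and SD in black (n = 3); the CD59 segment widens from about 2.79% to 10.9% of the sum while the whole bar is slightly lower with shNUF2.

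VTN, the soluble inhibitor of the terminal complex and integrin ligand, fell the most. The gene (ENSG00000109072, chr17:28367284-28373091, minus strand) was counted at 320, 444 and 554 reads in the controls, and at 123, 157 and 162 after knockdown. In CPM it stood at 22.5, 27.8 and 32.2 against 9.12, 12.1 and 10.8. The controls were spread widely, with a coefficient of variation of 17.6% against 1.40% for CD46, yet the groups did not overlap. The mean moved from 27.5 ± 4.85 to 10.7 ± 1.48 CPM, with a log2 fold change of -1.37 ± 0.13 (SE, adjusted p = 3.54e-10) and a 95% interval of -1.63 to -1.11. Of all genes tested, 7.15% changed by more. SARM1 lies on the opposite strand of the same stretch without sharing exon bases, and its log2 fold change was -0.93 ± 0.13 (SE, adjusted p = 3.7e-07). Whether the counting used strand is not given in the sources used here. Another gene model on the same strand that shares 13.6% of the VTN exon bases had 0 reads in every library.

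C3 was abundant in both groups and rose slightly. The gene (ENSG00000125730, chr19:6677704-6730562, minus strand) stood at 1497, 1351 and 1322 CPM with shNC and at 1584, 1523 and 1532 CPM with shNUF2. The knockdown libraries were all above the controls, the nearest pair being 1497 and 1523. The log2 fold change was 0.15 ± 0.04 (SE, adjusted p = 0.00307), and 77.7% of the genes tested changed by more. On log2(FPKM + 1) with limma the C3 value was 0.12 and missed the threshold (adjusted p = 0.0501).

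The proteases of the first component were less abundant. C1S (ENSG00000182326, chr12:6988259-7071032, plus strand) stood at 66.4, 68.2 and 68.8 CPM with shNC and at 58.4, 62.7 and 57.7 CPM with shNUF2, which do not overlap, and fell by 0.19 ± 0.06 on the log2 scale (SE, adjusted p = 0.0062). C1S shares 3.54% of its exon bases with EMG1 on the same strand, which had a log2 fold change of -0.53 (adjusted p = 5.95e-06). C1R (ENSG00000159403, chr12:7080214-7092540, minus strand), its partner in the same complex and its neighbor on the chromosome, stood at 20.7, 19.1 and 19.2 CPM against 17.9, 16.7 and 21.5 CPM. The third knockdown library was above all controls, and the 95% interval of the log2 fold change ran from -0.29 to 0.15 (adjusted p = 0.593). Without shNUF2 replicate 2 the sign of C1R turned, to 0.01. C1R shares 11.4% of its exon bases with C1RL on the same strand, which fell by 1.25, so that reads in the shared stretch are uncertain. The C1S to C1R ratio in FPKM was 3.10 ± 0.189 and 2.90 ± 0.484, with overlapping libraries.

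CFB and CFI were close to the limit of detection. CFB (ENSG00000243649, chr6:31945650-31952084, plus strand) gathered 4, 10 and 7 reads in the controls, and 17, 13 and 7 after knockdown. The values overlap at 7 reads. In a fit without the filter the log2 fold change of CFB was 0.99 (adjusted p = 0.162). Without shNUF2 replicate 3 CFB entered the test, through the knockdown libraries alone, and its log2 fold change was 1.34. Entry thus depended on the omission of 1 library and on the group where CFB is high, so that no call is read from it. CFI (ENSG00000205403, chr4:109740694-109802179, minus strand) had 0, 4 and 0 reads against 0, 1 and 0 reads. A count of 0 allows up to 3 reads, or 0.174 to 0.231 CPM in these libraries, by counting error alone. Same-strand gene models share 45% of the CFB and 32% of the CFI exon bases and had 0 reads in every library, so that reads in those stretches are uncertain. A difference in CFI was not detectable at this depth. CD46, the membrane cofactor of this protease, was by contrast among the most abundant of the 9 genes.

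Per length, the order of the 9 genes in the control group was CD55 at 373 FPKM, C3 at 168, CD46 at 152, CD59 at 15.1, VTN at 14.4, C1S at 10.5, C1R at 3.39, CFB at 0.0925 and CFI at 0.0171 FPKM. CD59 and VTN were neighbors whose libraries overlapped, and each other gene lay above the next in every library. The step from CFB to CFI is not resolved, since the nearest control values, 0.0594 and 0.0513 FPKM, rest on 4 reads each. With shNUF2 the levels were 339 FPKM for CD55, 186 for C3, 106 for CD46, 54.4 for CD59, 9.22 for C1S, 5.59 for VTN and 3.22 for C1R, each above the next in every library. VTN and C1S thus changed places, and CD59 moved away from VTN. The 9 genes together took 5140 ± 255 CPM and 5083 ± 164 CPM, with overlapping libraries (exact permutation p = 0.80).

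A list of 49 further complement genes was read beside the 9. Of these, 18 passed the filter, but 6 of them did not reach it in all libraries of both groups, and their reads are given. Of the 12 that reached it in all libraries of both groups 3 rose, 5 fell and 4 did not pass, against 33.9% and 33.8% of all genes tested that rose and fell. The 4 were MASP2, C8G, ITGB2 and C5AR1. The other 31 had at most 18 reads in any library, and 13 had none in any library. Among them C9, the subunit that forms the pore, had 0 reads in each control and 5, 8 and 3 in the knockdown libraries. CD93 had 0, 1 and 0 reads against 7, 6 and 5. C4A went the other way, with 7, 9 and 11 reads against 3, 0 and 3. These genes were not tested.

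Among the activating proteins, factor D (CFD), the protease that cleaves factor B, fell from 139 ± 2.15 to 73.1 ± 0.98 CPM, a log2 fold change of -0.92 ± 0.05 (SE, adjusted p = 3.07e-15). C1RL, a protease related to C1R, fell from 29.4 ± 1.31 to 12.3 ± 1.20 CPM (adjusted p = 2.9e-11). C5, the source of the anaphylatoxin C5a, was low at 26, 30 and 35 reads against 4, 4 and 9 reads, and passed the filter through the controls alone. MASP1, a lectin pathway protease, had 15, 17 and 35 reads against 11, 6 and 14 reads, and likewise reached the filter in full in the controls alone.

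Of the soluble regulators, clusterin rose while both chains of the C4b-binding protein fell. SERPING1, the C1 inhibitor that blocks C1R and C1S, was counted at 10, 1 and 5 reads in the controls and at 32, 37 and 41 after knockdown. It reached the filter in full through the knockdown libraries alone. Clusterin (CLU), another inhibitor of the terminal complex and abundant here, rose from 287 ± 8.11 to 340 ± 18.7 CPM (adjusted p = 2.77e-05), the opposite direction to VTN. The chains of the C4b-binding protein, a cofactor for factor I, fell, C4BPA by 1.10 (adjusted p = 9.29e-04) and the abundant C4BPB by 0.19 on the log2 scale (adjusted p = 0.00105). CD46, CD55, C4BPA and C4BPB belong to the cluster of regulators on chromosome 1. Of the 11 genes listed for that cluster 5 were tested, 0 rose and these 4 fell, where 33.8% of all genes tested fell. The cluster is not one of the lists by role, and this count is a description with no test. CFHR4 had 26, 39 and 14 reads against 16, 15 and 8 reads. It reached the filter in full in the controls alone. The CFHR genes are near-identical in places, so that its reads are uncertain. CD46 and CD55 are among the 9 genes and are counted here again.

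On the cell surface, thrombomodulin (THBD), which aids the inactivation of C3b, rose from 10.4 ± 1.63 to 28.9 ± 5.96 CPM (adjusted p = 2.39e-10). CD46, CD55, CD59 and THBD were the tested membrane regulators, of which CD59 and THBD rose and CD46 and CD55 fell, where 33.9% and 33.8% of all genes did. Of 10 receptors, ITGAX, a chain of complement receptor 4, rose by 2.35 ± 0.19 on the log2 scale (SE, adjusted p = 2.02e-11). C5AR2, a second receptor for C5a, had 1, 1 and 7 reads against 32, 21 and 28 reads, and passed the filter through the knockdown libraries alone. ITGAM, a chain of complement receptor 3, had 3, 9 and 12 reads against 12, 13 and 10 reads and did not pass (adjusted p = 0.185). ITGB2, the chain that pairs with ITGAX, did not pass (log2 fold change -0.06, adjusted p = 0.389). C1QBP, a mitochondrial protein that binds C1q, fell by 0.19 with overlapping libraries (adjusted p = 0.00498, and 0.0658 without shNC replicate 3).

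**Figure D3:**
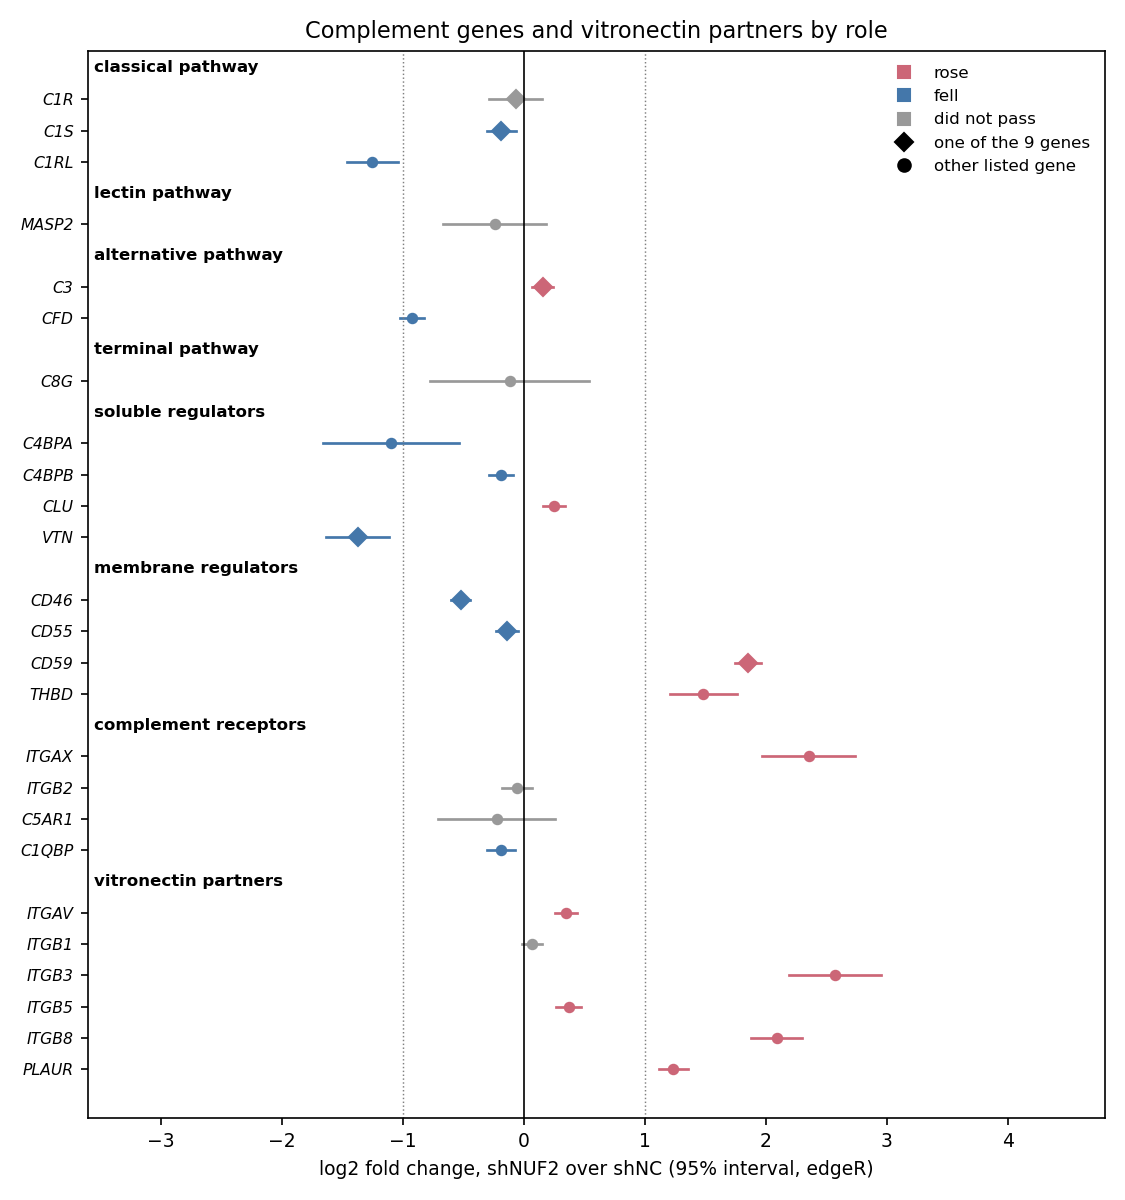
Log2 fold change of the genes of the complement lists and of the vitronectin partners that reached the filter in all libraries of both groups, shNUF2 over shNC, with 95% intervals from edgeR (n = 3 per group), grouped by role; diamonds are the 9 genes and dotted lines stand at -1 and 1. CD59 at 1.85 and VTN at -1.37 are the 2 diamonds beyond the dotted lines.

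Of 7 listed genes whose products bind vitronectin, 6 reached the filter in all libraries of both groups. Of these 6, 5 rose and 0 fell, against 33.9% and 33.8% of all genes tested. ITGAV, the chain shared by most vitronectin receptors, rose from 143 ± 1.25 to 181 ± 4.92 CPM (adjusted p = 1.33e-07). ITGAV pairs with the integrin beta chains that follow. ITGB3 went from 2.98 ± 1.06 to 17.6 ± 2.87 CPM (adjusted p = 2.9e-12) and ITGB8 from 8.22 ± 0.520 to 35.1 ± 1.80 CPM (adjusted p = 9.9e-16). ITGB6 had 7, 3 and 6 reads against 44, 32 and 38 reads, and passed the filter through the knockdown libraries alone. ITGB5 was abundant and rose by 0.37 on the log2 scale (adjusted p = 2.96e-07). The urokinase receptor PLAUR, which binds vitronectin, rose from 162 ± 18.7 to 379 ± 17.7 CPM (adjusted p = 2.89e-16). ITGB1 had a log2 fold change of 0.07 and did not pass (adjusted p = 0.148).

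**Figure D4:**
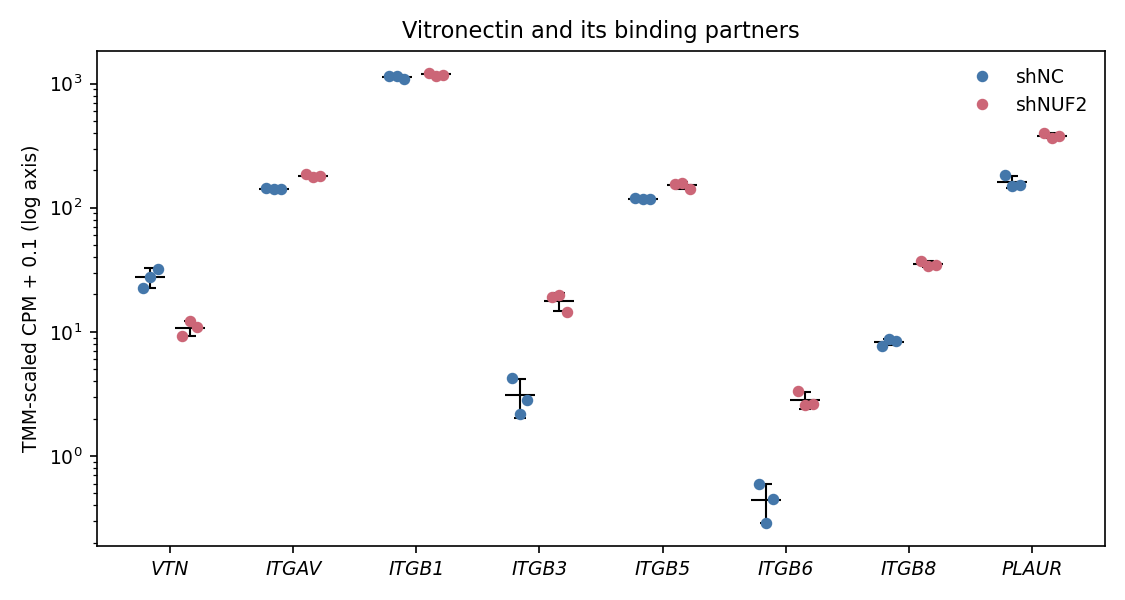
TMM-scaled CPM + 0.1 (log axis) of VTN and of 7 genes whose products bind vitronectin, in each library, with mean and SD in black (n = 3). VTN lies lower in the shNUF2 libraries, and the partners lie higher, although ITGB1 did not pass the test and ITGB6 passed the filter through the shNUF2 libraries alone. The groups did not overlap for 70.6% of all genes tested.

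Markers of other cell types were read beside the 9 genes. In bulk RNA, fewer cells of a type and less RNA per cell cannot be told apart. Summed over each list, the 8 leukocyte markers took 1.83 to 3.19 CPM with shNC and 5.12 to 8.15 CPM with shNUF2, and all 8 stayed under 100 reads. The 7 hepatocyte markers took 0.465 to 0.773 CPM and 2.72 to 3.04 CPM, with ALB, APOA1 and TTR at 0 in every library. FGA, FGB and SERPINA1 of that list had 0 to 1 reads in the controls and 3 to 24 reads in the knockdown libraries. AHSG, the remaining gene of the list, went the other way, with 11, 8 and 7 reads against 5, 7 and 2, which overlap. The 5 endothelial markers took 2.13 to 3.44 CPM and 4.82 to 6.46 CPM. The 6 fibroblast markers took 83.9 to 90.5 CPM and 68.9 to 76.3 CPM, most of it from COL1A1, which fell, while DCN rose (log2 fold change 1.22, adjusted p = 7e-06) and COL3A1 had 1, 0 and 2 reads against 15, 15 and 5 reads. The 10 ovarian carcinoma markers took 6782 to 7283 CPM and 6089 to 6334 CPM, most of it from FOLR1. Of the 9 tested carcinoma markers, PAX8, EPCAM, KRT8 and KRT18 rose, and FOLR1, MSLN, MUC16 and KRT7 fell. The part of these shifts in the results for the 9 genes was not tested.

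Over the 6 libraries, the gene most like CD59 in log2 CPM was CXCR4 (Pearson r = 0.9999), and those most like VTN were EPHA10 (r = 0.9985) and KIF23 (r = 0.9984), among 11690 genes searched. The 6 points share the division into groups, and 2300 genes had an r above 0.95 with CD59 and 1504 with VTN.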

How the data were processed

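RNA of 6 libraries (3 shNC, 3 shNUF2) was sequenced from stranded poly(A) libraries. The authors trimmed, aligned and counted the reads, and the submitters' processing notes name cutadapt, HISAT, HTSeq and GRCh38.p13. Versions and the strand setting are not given in the sources used here. The deposited table holds raw read counts and FPKM per gene, with positions and lengths. The deposited FPKM equal counts per length and library total to within 2.71e-07. The library totals were 13057534 to 16995452 counts, and floors for a count of 0 cover counting error only. The 95% intervals of log2 fold changes come from the fit and include the spread between libraries.

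Counts were fitted with edgeR 4.0.16 in R 4.3.3 (filterByExpr, TMM scaling, quasi-likelihood F-test, group as the only term), and p-values were adjusted by the Benjamini-Hochberg method over all 12874 genes tested. The study's threshold was read as a log2 fold change beyond 1 with p under 0.05. CPM and FPKM were computed from the counts with TMM-scaled library sizes. Single ratios were compared by exact permutation. Alternatives used DESeq2 1.42.0, limma 3.58.1 on FPKM, other scalings, other filters, a replicate block and the omission of each library. The fits were tested on simulated data. The genes, lists and tests were chosen with earlier results of these data known. The text names the 9 genes, listed genes of each role, and genes among the nearest 2 in profile to CD59 and VTN. A few genes under these rules are not reported here, and any of them on a list was left out of its counts.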

Additional observations from a re-analysis of the deposited data

How the results depend on the processing

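Over 15 alternatives to the processing, the log2 fold changes of CD59 ranged from 1.75 to 1.90, of VTN from -1.50 to -1.25, of CD46 from -0.56 to -0.50 and of C1S from -0.22 to -0.16, and each kept its direction and passed the test in all 15. C3 ranged from 0.11 to 0.21 and CD55 from -0.18 to -0.09. With limma on log2(FPKM + 1) 1 of the 9 genes rose, since C3 missed the threshold, and CD55 missed it without shNUF2 replicate 2. C1R, which did not pass in any of the 15, ranged from -0.185 to 0.00694 with 1 library left out, the sign turning without shNUF2 replicate 2. When 1 library was left out, 1 to 2 of the 9 genes were higher at the study's threshold. The count was 2 without shNC replicate 2 or without shNUF2 replicate 3, where the log2 fold change of CFB was 1.34 with an unadjusted p under the threshold. In both settings CFB passed the filter through the shNUF2 libraries alone. NUF2 ranged from -1.60 to -1.42. The labels do not say whether the replicate numbers pair the libraries. Deviations of same-numbered libraries from their group means correlated at 0.0205, 0.00456 and -0.0298 over the genes tested. These values show no common shift but cannot decide whether the libraries are paired. With a replicate block 2 genes rose and 4 fell, as without it. With the filter used, 25 of the further listed genes, vitronectin partners included, were tested. Of these, 11 rose and 6 fell, where 33.9% and 33.8% of all genes tested did. Among the called genes, SERPING1, C5AR2, ITGB6 and C5 passed the filter through 1 group alone. The counts were 8 and 5 with at least 1 CPM in every library, and 14 and 7 with no filter. The share of all genes called was not computed for those settings. MASP1 and CFHR4, which reached the filter in full in the controls alone, did not pass, but did under 3 alternatives and under 1. Depth and exon bases shared with other gene models limit CFB and CFI, and 31 further complement genes were not tested.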
